A study of Arabidopsis thaliana with 22 samples.

Results

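H3K23Ac, acetylation of lysine 23 of histone H3, was compared between ethylene and air in the *ein2-5* mutant of *Arabidopsis thaliana*, in the lists of enriched regions (peaks) that the authors deposited. The ethylene list held 10909 peaks and the air list 12212 peaks, 23121 of the 105488 peaks in the 10 lists of the series, and both lists were used whole. A peak was called shared when it overlapped a peak of the other list by at least 1 bp, and ethylene-only or air-only when it did not. Seedlings of both groups carried *ein2-5* and were grown in the dark at 24 °C for 3 days, and whole seedlings were taken. The ethylene group then received 10 ppm ethylene in hydrocarbon-free air for 4 h, and the air group hydrocarbon-free air alone for 4 h. For each treatment 2 ChIP libraries were sequenced and their reads pooled before peaks were called, with 1 IgG library from *ein2-5* seedlings of that treatment as control. With 1 pooled list per treatment there are no replicates of the lists, so no test between treatments was run. Intervals beside shares are 95% Wilson intervals and hold the error of counting peaks alone.

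Ethylene is a plant hormone that binds receptors of the ETR1 family in the endoplasmic reticulum and thereby inactivates the kinase CTR1. EIN2 is the membrane protein that passes the signal on: its C-terminal end is released into the nucleus, where the transcription factors EIN3 and EIL1 turn on the response genes. Seedlings of *ein2-5*, a loss-of-function allele, are insensitive to ethylene. Acetylation of histone tails is a mark of transcribed chromatin, written by acetyltransferases and removed by deacetylases, and acetylated H3 usually lies just downstream of the start of active genes. The comparison asks where the mark was called under each treatment when EIN2 is missing.

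The depth behind the lists differed more in the control than in the ChIP. After duplicate removal the ChIP libraries held 30688135 tags with ethylene and 36052363 in air, whereas the IgG control held 4333059 tags with ethylene and 13683768 in air, 3.16 times as many. The caller scaled ChIP reads down to the control, so the weakest fold enrichment that could pass the P threshold of 0.01 over the genome-wide background was 1.83 with ethylene and 1.5 in air. Treatment and control depth cannot be told apart in these lists. Fold enrichment and pileup were therefore not compared between the lists, and peaks were ranked within each list by −log10 P. A rank is given as a position or as a top percentage, where the top 1% holds the strongest peaks of that list.

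Summits, the positions of highest coverage in a peak, lay mostly in transcribed sequence near gene starts. The following 100-base windows, centred on summits and read on the sense strand of the gene, are shown because base composition differed between the highest-ranked unshared peaks of the lists, as described below. They come from the RefSeq TAIR10.1 assembly, which has the TAIR10 coordinates of the files, and capitals mark runs of 3 or more G or C. The first group holds the highest-ranked ethylene-only peaks whose window lay between the first and the last coding base of the gene.
AT5G51510 (chr5:20921536-20921635, plus strand): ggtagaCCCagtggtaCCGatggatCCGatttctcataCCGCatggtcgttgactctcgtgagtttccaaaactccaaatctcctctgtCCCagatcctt
AT2G40205 (chr2:16792378-16792477, minus strand): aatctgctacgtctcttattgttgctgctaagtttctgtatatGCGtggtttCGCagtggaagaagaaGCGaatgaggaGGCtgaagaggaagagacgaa
mMDH1 (chr1:19856619-19856718, minus strand): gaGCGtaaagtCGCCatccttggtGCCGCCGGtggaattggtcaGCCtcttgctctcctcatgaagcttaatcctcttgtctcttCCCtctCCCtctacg
The second group holds the air-only peaks chosen in the same way.
AT5G65925 (chr5:26369306-26369405, plus strand): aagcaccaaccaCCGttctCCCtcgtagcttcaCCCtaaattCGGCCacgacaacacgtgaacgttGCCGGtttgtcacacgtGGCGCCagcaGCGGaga
AT3G16510 (chr3:5617317-5617416, minus strand): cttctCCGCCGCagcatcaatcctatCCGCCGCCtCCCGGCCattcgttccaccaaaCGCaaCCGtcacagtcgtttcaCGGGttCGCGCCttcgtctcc
WRKY65 (chr1:10237278-10237377, plus strand): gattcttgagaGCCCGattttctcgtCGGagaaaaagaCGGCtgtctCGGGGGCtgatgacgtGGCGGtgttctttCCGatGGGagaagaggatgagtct
The last pair are shared peaks with very unlike ranks, AT3G24730 ranked high with ethylene and PYL5 ranked high in air.
AT3G24730 (chr3:9030597-9030696, minus strand): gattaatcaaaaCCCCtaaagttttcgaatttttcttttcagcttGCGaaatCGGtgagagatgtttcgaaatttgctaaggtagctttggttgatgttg
PYL5 (chr5:1609517-1609616, plus strand): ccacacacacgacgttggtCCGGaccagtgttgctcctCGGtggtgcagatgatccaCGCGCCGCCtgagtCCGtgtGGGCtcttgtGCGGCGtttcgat
G or C made up 50, 45 and 55 of the 100 bases in the ethylene-only windows in the order shown, and 58, 62 and 54 in the air-only windows. They made up 36 bases at AT3G24730 and 63 at PYL5.

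Most H3K23Ac peaks of *ein2-5* were called under both treatments. Of the ethylene peaks, 8129 (74.5%, interval 73.7 to 75.3%) overlapped an air peak and 2780 (25.5%, interval 24.7 to 26.3%) did not. Of the air peaks, 8095 (66.3%, interval 65.4 to 67.1%) overlapped an ethylene peak and 4117 (33.7%, interval 32.9 to 34.6%) did not. The ratio of ethylene to air peak numbers was 0.893. It turned round when the air list was scaled to the depth of the ethylene control, which kept 7396 of its 12212 peaks and gave a ratio of 1.47. At that depth 46.5% of the ethylene peaks and 23% of the air peaks had no partner. The setting removes air peaks only and keeps all 10909 ethylene peaks. The ratio and the unshared share of ethylene peaks could therefore only rise, and only the size of the change is informative.

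Overlapping peaks were close matches in position. A single partner was found for 7950 ethylene peaks, while 177 overlapped 2 air peaks and 2 overlapped more. In 7548 pairs each peak was the other's only partner. In these pairs the median distance between summits was 36 bp and 81.4% of the summits were within 100 bp of each other. The bases covered by both peaks were a median 72.2% of those covered by either. Median widths in the pairs were 402 bp with ethylene and 384 bp in air, and the ethylene peak was the wider one in 52.8% of pairs. Over the whole lists, 65% of the bases in ethylene peaks were also in an air peak, and 59.8% of the bases in air peaks were also in an ethylene peak.

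Unshared peaks were narrower and lower in rank than shared ones in either list. The median width was 296 bp for ethylene-only peaks (quartiles 241 and 373 bp) and 402 bp for shared ethylene peaks (297 and 531 bp). Air-only peaks had a median of 276 bp (232 and 359 bp) and shared air peaks 387 bp (290 and 534 bp). The median rank was the top 63.4% for ethylene-only and 43.7% for shared ethylene peaks, and the top 67.9% for air-only and 39.7% for shared air peaks.

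The share of peaks with a partner varied with rank. In the strongest 10% of each list it was 92.9% with ethylene (interval 91.2 to 94.2%) and 93.5% in air (91.9 to 94.7%). Among peaks ranked from the top 80% to the top 90% it was 62.8% with ethylene and 44.0% in air, and in the weakest 10% it was higher again, at 69.5% and 49.7%. Thus 78 ethylene-only and 80 air-only peaks lay in the strongest 10%. In the weakest 10% the median background at the summit was 14.0 fragments with ethylene and 33.0 fragments in air, above the 12.4 and 31.0 fragments of the 10% ranked just above them. Among the 1000 strongest peaks of each list, 933 ethylene peaks and 939 air peaks had a partner somewhere in the other list.

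**Figure D1:**
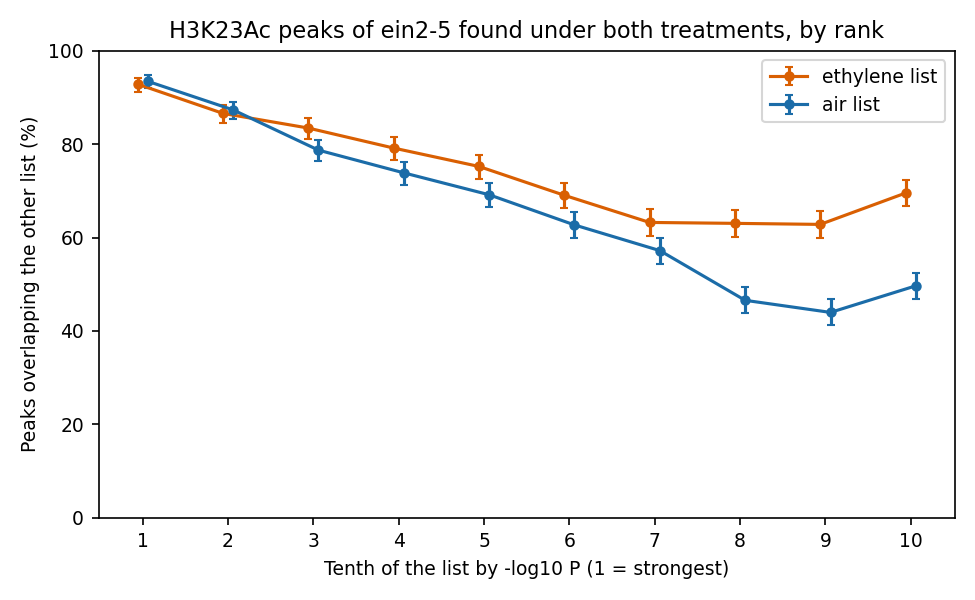
Share of H3K23Ac peaks of ein2-5 that overlapped a peak of the other list (y axis, %) in 10 equal steps of the list by −log10 P (x axis, 1 is the strongest), for the ethylene list and the air list. Bars are 95% Wilson intervals. The strongest 10% stand at 92.9% with ethylene and 93.5% in air, and the lists part in the lower steps, at 62.8% with ethylene and 44.0% in air in the step before the last.

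Although the same regions were found, their order differed. Only 292 of the 1000 strongest ethylene peaks overlapped one of the 1000 strongest air peaks. Of the 100 strongest ethylene peaks, 9 overlapped one of the 100 strongest air peaks. Across the 7548 pairs, Spearman's rho of the ranks was 0.28 and Pearson's r of the top percentages was 0.27. These are descriptions across peaks of pooled libraries, and peaks are not independent replicates. Of the pairs whose ethylene peak was in the strongest 10%, 34.7% also had their air peak there, and of those whose air peak was in the strongest 10%, 31.5% also had their ethylene peak there.

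Base composition followed this difference in order. The 300 bp around each summit had a median GC content of 43.0% in the ethylene list and 44.0% in the air list, against 36.3% over all 300-bp windows of the nuclear chromosomes. In the strongest 10% the medians were 46.7% with ethylene and 51.7% in air, and in the weakest 10% they were 41.3% with ethylene and 40.7% in air. Ethylene-only peaks of the strongest 10% had a median of 41.5% (quartiles 37.7 and 44.5%), while air-only peaks of the strongest 10% had 52.7% (48.2 and 55.7%). Shared peaks of the same rank had 47.0% in the ethylene list and 51.3% in the air list. The interquartile ranges of the ethylene-only and air-only peaks did not overlap at this rank. Over all ranks they did, with quartiles of 36.3 and 44.0% for the 2780 ethylene-only peaks and of 36.7 and 49.3% for the 4117 air-only peaks, whose median of 43.7% was 3.67 percentage points above that of the ethylene-only peaks. In the weakest 10% the medians were 39.0% for ethylene-only and 40.3% for air-only peaks.

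The share of ethylene peaks without an air partner varied with GC content. It was 38.3% below 35% GC (interval 35.6 to 41.1%), 36.5% from 35 to 40% GC, 29.6% from 40 to 45%, 19.2% from 45 to 50% and 6.33% at 50% GC or more (interval 5.34 to 7.49%). In the air list the unshared share was 49.8% below 35% GC (interval 47.3 to 52.2%) and lay between 29.7 and 33.0% in the other bands. Among pairs at 50% GC or more, the air peak had the better rank in 70.2% and the ethylene peak in 29.8% (interval 27.7 to 32.0%) of 1713 pairs. Their median rank was the top 34.2% with ethylene and the top 16.5% in air. Among pairs from 35 to 40% GC the ethylene peak had the better rank in 58.4% (interval 55.9 to 60.9%) of 1525 pairs. Below 35% GC this was not seen, since the ethylene peak had the better rank in 50.6% (interval 46.8 to 54.4%) of 670 pairs. The part of base composition, of the libraries and of the control depth in the differences between the lists was not tested.

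**Figure D2:**
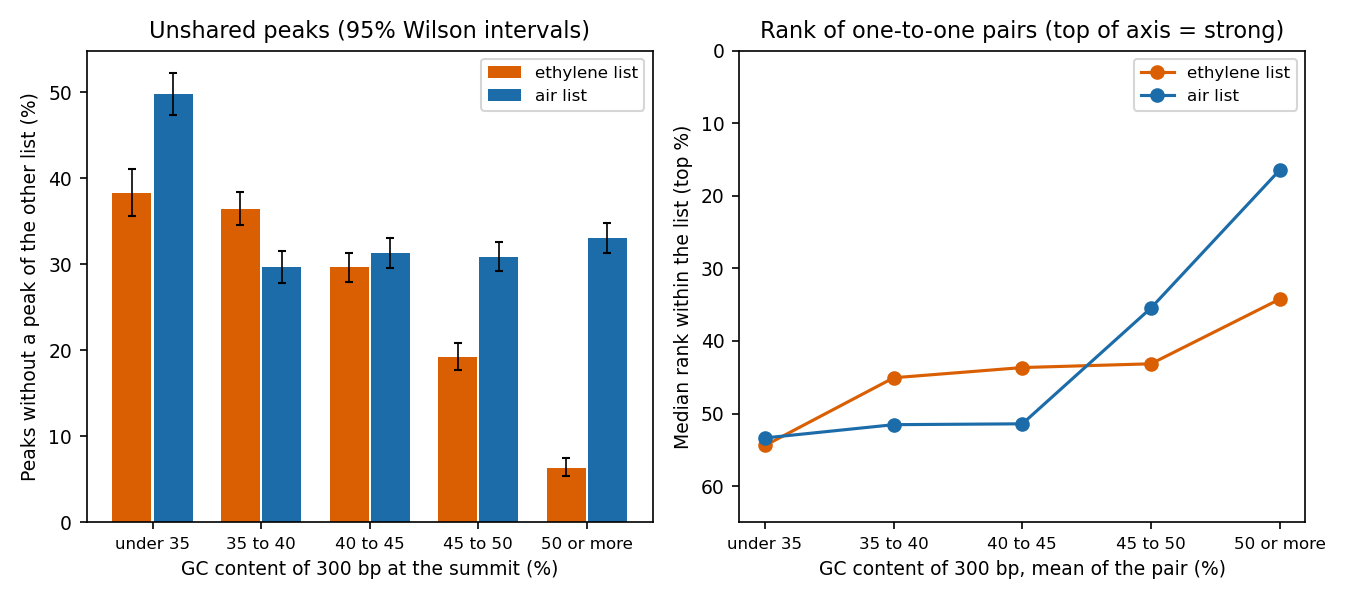
Left, share of peaks without a peak of the other list (y axis, %, bars are 95% Wilson intervals) by GC content of the 300 bp around the summit (x axis, %), for the ethylene and the air list of ein2-5. It is 6.33% in the ethylene list and 33.0% in the air list at 50% GC or more. Right, median rank within the list (y axis, top %, strong at the top) of the 7548 one-to-one pairs by the mean GC content of the pair, where the highest band stands at 34.2% with ethylene and 16.5% in air.

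The position in genes also differed between the classes. A summit lay inside a protein-coding gene for 90.4% of ethylene-only peaks (interval 89.2 to 91.4%) and 95.6% of shared ethylene peaks (95.1 to 96.0%), and for 82.3% of air-only (81.1 to 83.5%) and 95.7% of shared air peaks (95.2 to 96.1%). The gap between the unshared classes was smaller at the ethylene control depth, with 91.9% of ethylene-only and 88.3% of air-only summits in genes, and with a fold enrichment of at least 2, with 93.2% and 92.0%. Coding sequence held 48.3% of ethylene-only and 61.1% of air-only summits. The 5′ UTR held 17.7% (interval 16.3 to 19.2%) of ethylene-only and 6.05% (5.36 to 6.82%) of air-only summits. Introns, together with parts of genes covered only by other transcripts, held 22.6% of ethylene-only and 13.5% of air-only summits. Summits more than 1 kb from any protein-coding gene and outside noncoding genes made up 2.73% of ethylene-only peaks, 76 in all, and 7.97% of air-only peaks, 328 in all, against 1.08% of shared ethylene and 1.06% of shared air peaks. These distant summits were AT-rich and weak. Their median GC content was 29.3% in both unshared classes, and their median rank the top 75.5% with ethylene and 77.9% in air.

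The difference in GC content between the unshared classes was present in coding sequence but not in every kind of sequence. Summits in coding sequence had a median GC content of 43.3% for ethylene-only and 47.3% for shared ethylene peaks, and of 47.7% for air-only and 47.7% for shared air peaks. Summits in the 5′ UTR had 38% for ethylene-only and 38.3% for air-only peaks. The order was the other way in introns and other transcripts (37.7% for ethylene-only and 37.0% for air-only peaks), in the 3′ UTR (36.7% and 35.5%) and within 1 kb upstream of genes (30.5% and 28.7%).

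**Figure D3:**
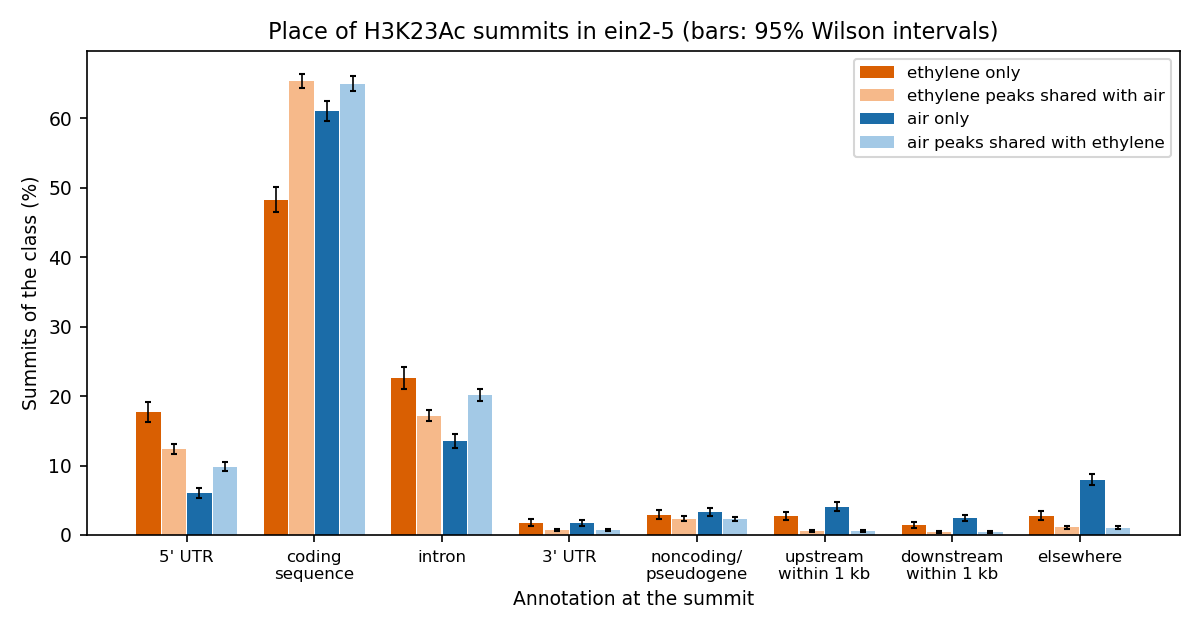
Share of summits (y axis, %, bars are 95% Wilson intervals) in each kind of annotated sequence (x axis) for ethylene-only, shared ethylene, air-only and shared air H3K23Ac peaks of ein2-5. Ethylene-only summits stand at 17.7% in the 5′ UTR and 48.3% in coding sequence, air-only summits at 6.05% and 61.1%.

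Within genes, summits clustered near the start. The median distance from the annotated start was 305 bp for ethylene-only summits (quartiles 224 and 480 bp) and 365 bp for shared ethylene summits (263 and 551 bp). For air-only summits it was 449 bp (299 and 943 bp), and for shared air summits 399 bp (290 and 587 bp). The first 1 kb of the gene held 88.9% of the ethylene-only summits in genes and 76.2% of the air-only ones. The same offset was seen in pairs. Of 7179 pairs with both summits in the same gene, the ethylene summit was nearer to the start in 62.3% and the air summit in 36.8%, with a median difference of −14 bp, ethylene minus air.

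**Figure D4:**
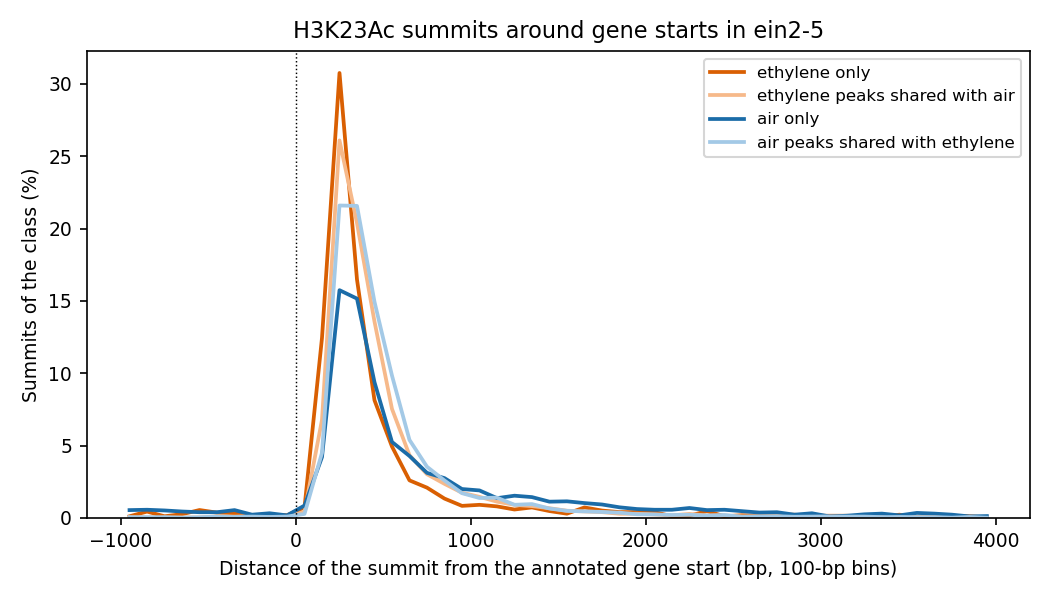
Distance of the summit from the annotated start of its gene (x axis, bp, in bins of 100 bp, start at 0) and share of all summits of the class (y axis, %) for ethylene-only, shared ethylene, air-only and shared air peaks of ein2-5. All classes peak just downstream of the start. Ethylene-only summits are the closest, with a median of 305 bp, and air-only summits, with a median of 449 bp, have the lowest peak and the longest tail into the gene.

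Short sequence motifs were counted in the same 300-bp windows, on both strands. AACCCTA, the telo box found near the starts of many ribosomal protein genes, was present at 19.1% of ethylene-only (interval 17.7 to 20.6%) and 17.8% of shared ethylene summits, and at 11.1% of air-only (10.2 to 12.1%) and 17.6% of shared air summits. It was in 8.83% of 27444 promoters, taken as the 300 bp from 250 before to 50 after each gene start. GAAGAA was present at 63.1% of ethylene-only and 49.6% of air-only summits and in 39.4% of promoters, and GAGAGA at 45.8% and 35.2% and in 29.2% of promoters. ATGTAT, the core of the site that EIN3 prefers, was present at 11% of ethylene-only and 12% of air-only summits and in 26.1% of promoters. The looser ATGNAT was at 46.7% and 43.0%, and in 59.1% of promoters. The G box CACGTG, bound by bHLH and bZIP factors such as PIFs and HY5, was at 2.05% and 3.96%, and in 7.68% of promoters. TGGGCC was at 1.19% and 3.72%, and in 15.5% of promoters. Most summits lay inside genes, so all 300-bp windows of the nuclear chromosomes are a further background. CACGTG was in 3.26% of these windows, between the ethylene-only and air-only shares. TGGGCC was in 4.53%, ATGTAT in 23.98% and ATGNAT in 58.98% of them, above the shares of both unshared classes. AACCCTA was in 6.19%, GAAGAA in 40.03% and GAGAGA in 24.33%, below the shares of both unshared classes. ATGTAT is a case of ATGNAT, and AT-rich and GC-rich motifs also follow base composition. A match is a description of the window and not a bound site.

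Of 27444 protein-coding genes, 7550 (27.5%) held a summit of both lists, 2164 (7.89%) of the ethylene list only, 2658 (9.69%) of the air list only, and 15072 of neither. Within 2 kb of a peak, the rule of the study's methods, there were 13527 genes in both lists, 2333 in the ethylene list only and 3189 in the air list only. At the ethylene control depth the last 2 numbers were 5282 and 1569, and the genes with a summit of 1 list only were 4215 for ethylene and 1276 for air. Of the 2512 ethylene-only peaks with a summit in a gene, 321 (12.8%) lay in a gene that also held an air summit elsewhere, and of the 3389 air-only ones 611 (18.0%) lay in a gene that also held an ethylene summit. The median number of exons was 6 for genes with an ethylene summit only and 4 for those with an air summit only or with both. Among 5597 genes of 1 exon, 180 held an ethylene summit only (3.22%) and 518 an air summit only (9.25%). Among 9486 genes of 6 or more exons the numbers were 1113 (11.7%) and 995 (10.5%).

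The highest-ranked ethylene-only peaks lay in genes of varied functions. The peak in AT5G51510, which encodes a jagunal-like protein, ran from chr5:20921460-20922035 and ranked 49 of 10909, with a −log10 P of 11. AT2G40205, a gene for ribosomal protein L41, ranked 72 with a peak at chr2:16792247-16792604. mMDH1, a mitochondrial malate dehydrogenase, and APTX, an aprataxin-like DNA repair protein, shared rank 124. DGK5, a kinase that turns diacylglycerol into phosphatidic acid, and AT4G33865, a ribosomal protein of the S14p/S29e family, shared rank 160. The other genes of the first 10 were AT3G11450, AT1G48770, AT5G59400 and AT4G03940, the last with rank 247. GC content at these 10 summits ranged from 34.3% at AT4G33865 to 51.0% at mMDH1. Of the 10 genes, 8 had no air peak within 2 kb, and AT5G59400 and AT4G03940 had one nearby.

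The highest-ranked air-only peaks lay in more GC-rich sequence. AT5G65925, an uncharacterized gene, ranked 44 of 12212 with a peak at chr5:26369126-26369540 and a −log10 P of 21.8. AT3G16510, which encodes a calcium-dependent lipid-binding protein, ranked 188, and a weaker ethylene summit lay elsewhere in the gene at the top 14.6%. WRKY65, a transcription factor gene, ranked 241 with a peak of 1051 bp, and CWLP, a cell wall and plasma membrane linker protein, ranked 266. PHOT1, the blue light receptor of phototropism, ranked 369 with a peak at chr3:16818608-16819141, 2073 bp into the gene. The other genes were CYP71A28, AT3G02610, MGT6, which encodes a magnesium transporter, AT5G46395 and DIM1A, an rRNA dimethylase, with rank 397. GC content at these 10 summits ranged from 48.3% at DIM1A to 55.7% at CWLP and PHOT1, so 8 of the 10 ethylene-only summits lay below all of them.

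Genes that ranked high under both treatments held GC-rich peaks. FLA17, a fasciclin-like arabinogalactan protein of the cell wall, ranked 2 with ethylene and 23 in air. MTO1, the cystathionine gamma-synthase that commits carbon to methionine, ranked 23 with ethylene and 22 in air. ARO2, an armadillo repeat protein, ranked 46 and 42. CYP86A2, a fatty acid hydroxylase of cutin synthesis, ranked 38 with ethylene and 56 in air. The remaining genes of the first 10 were AT1G17160, AT3G63390, AT1G73320, AT5G62560, AT5G65520 and AT3G09630, a ribosomal protein L4 gene with ranks 104 with ethylene and 25 in air. GC content at the 10 ethylene summits ranged from 52.0 to 61.3%.

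The largest gaps in rank within a gene mostly followed the same order, with AT3G61980 as an exception. AT3G24730, which encodes a thioredoxin-like splicing protein of the U5 particle, ranked 42 with ethylene and 11823 in air, at a GC content of 37.3% at the ethylene summit. GRX4, a glutaredoxin, ranked 101 with ethylene and 11759 in air, at 36.7% GC. EDA39, AT3G61980 and AT2G13290 also had their ethylene peak in the top 6% and their air peak in the last 4%, at 45, 50.3 and 31.0% GC. In the other direction, PYL5, an abscisic acid receptor, ranked 10830 with ethylene and 28 in air, at 58.0% GC at the air summit. AT4G31510 ranked 10759 with ethylene and 93 in air, and JAL34, a lectin gene, ranked 10791 with ethylene and 204 in air, at 51.0% and 65% GC. MKS1, a substrate of MAP kinase 4, and AT3G50340 ranked 10780 and 10832 with ethylene and 194 and 430 in air.

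The genes for which the study showed ChIP data gave few differences in presence. NAC6, a senescence regulator, ETR2, an ethylene receptor, and ARGOS, a regulator of organ size and ethylene sensitivity, had 0 peaks within 2 kb in the ethylene list and 0 in the air list. EBF2, an F-box protein that marks EIN3 for degradation, had 1 shared peak in the gene, at chr5:8796589-8796964 with ethylene and chr5:8796029-8796993 in air. It ranked in the top 29.5% with ethylene and the top 6.10% in air. WRKY4 held 1 shared peak, in the top 19.6% with ethylene and 16.7% in air, with summits at 531 and 540 bp from the start. PHYA, the far-red light receptor, held 1 shared summit, in the top 42.2% with ethylene and 31.3% in air. BES1, a brassinosteroid transcription factor, held 1 shared summit, in the top 50.2% and 26.2%. ACT7, an actin gene used as a control, held a shared summit in the top 74.6% with ethylene and 34.4% in air, and an air-only summit 1945 bp into the gene. EIN2 itself held a weak shared peak near its start, at chr5:787538-787883 with ethylene and chr5:787551-787989 in air, in the top 84.0% and 88.3%. Peaks in neighbouring genes accounted for all others within 2 kb of these 9 genes.

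The 13 gene lists held 222 genes, of which 94 had a summit of both lists, 17 of the ethylene list only, 29 of the air list only and 82 of neither. Against the 27.5%, 7.89% and 9.69% of all genes given above, these counts are descriptions of lists chosen for seedling biology. At the ethylene control depth 18 of the 29 genes with an air summit only kept it, and 23 of the 94 genes with both lost the air summit. That setting could only remove air summits. The median GC content at the best summit was 39.0% for the 17 genes with an ethylene summit only and 48.0% for the 29 with an air summit only, and 44.3% with ethylene and 44.8% in air for the 94 with both.

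Genes of ethylene perception and signalling were mostly marked under both treatments, 11 of 16, with 3 in the ethylene list only, 1 in the air list only and 1, ETR2, in neither. RTE1, which promotes signalling by the receptor ETR1, had an ethylene peak of rank 413 at chr2:11106768-11107169 and no air peak within 2 kb. The receptor genes ETR1 and ERS1 held an ethylene summit only, in the top 13.7% and 58.1%, and an air peak overlapped the end of ETR1 with its summit outside the gene. XRN4, an exoribonuclease also known as EIN5, held an air summit only, in the top 93.4%, which was not kept at the ethylene control depth. At that depth 6 of the 16 genes were in the ethylene list only and 0 in the air list only. Over all 27444 genes, 4215 were then in the ethylene list only and 1276 in the air list only. EIN3 held the strongest ethylene peak of these 16 genes, at chr3:7262649-7263259 with rank 18, and ranked 1232 in air at chr3:7262791-7263169, in sequence of 32.0% GC at the ethylene summit. CTR1, the kinase upstream of EIN2, ranked 6193 with ethylene and 572 in air. EIL1 ranked 10187 with ethylene and 3062 in air. EBF1 held 2 ethylene and 4 air summits, and its best peaks lay at different sites. They ranked 4360 with ethylene at chr2:10847510-10848011 and 2438 in air at chr2:10850143-10850446, so these ranks do not compare 1 site. None of these differences in rank can be set against replicates.

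Genes of ethylene synthesis held 0 ethylene summits and 3 air summits among 13. These were ACO4, an ACC oxidase that makes ethylene, in the top 27%, ACS6, an ACC synthase, in the top 59.4%, and ACS8 in the top 90.2%. The summits of ACO4 and ACS6 were kept at the ethylene control depth and that of ACS8 was not. Within 2 kb of a peak, 2 of the 13 genes were in both lists. By that rule 1 gene, ACO1, was in the ethylene list only and 5 in the air list only, beside 2333 and 3189 of all 27444 genes. Of the 15 ethylene response genes, 6 had both, 0 the ethylene list only, 3 the air list only and 6 neither. The air-only ones were ERF1, an early transcription factor downstream of EIN3, HLS1, which is needed for the apical hook, and CBF1, a cold response factor, in the top 24.2%, 26.0% and 28.6%. All 3 air summits were kept at the ethylene control depth, and GC content there was 50.3, 50.3 and 54.3%. The EDF genes, 4 AP2 and B3 domain factors induced by ethylene, each held both summits, with EDF1 in the top 31.1% with ethylene and 2.71% in air. EDF3 was weak in both, in the top 83.5% and 84.8%. EDF3 and CBF2 lost their air summit at the ethylene control depth. At that depth 2 response genes were in the ethylene list only and 3 in the air list only. Over all 27444 genes the counts were then 4215 and 1276.

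Among 21 genes of histone acetylation and deacetylation, 11 had both summits, 5 the ethylene list only, 1 the air list only and 4 neither. The acetyltransferase gene HAC1 held an ethylene peak of rank 291 at chr1:29724215-29724603 and no air summit, and the deacetylase genes HDA9, HDA19, SRT2 and HD2C also held an ethylene summit only, in the top 34.7%, 52.2%, 77.4% and 57.1%. HAC12, a homologue of HAC1, held an air peak of rank 1004 only, in sequence of 38% GC, so air-only peaks were not all GC-rich. HAC1, HDA19, SRT2 and HAC12 had peaks of both lists within 2 kb. By that rule 2 genes of this list were in the ethylene list only and 0 in the air list only. GCN5, an acetyltransferase of H3, ranked 791 with ethylene and 785 in air. ENAP1 and ENAP2, the SANT domain proteins that the study names, were marked under both treatments, in the top 15.6% and 46.2% with ethylene and the top 8.31% and 2.91% in air.

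Light signalling genes all held a summit, 8 of 16 in both lists, 3 in the ethylene list only and 5 in the air list only. PHYC, a phytochrome, was in the ethylene list only with a peak in the top 11.7%, as were SPA1 and DET1, repressors of light responses in the dark, in the top 53.1% and 91.7%. Besides PHOT1, the air list alone marked PIF4 and HY5, transcription factors of opposite effect on hypocotyl growth, in the top 37.0% and 37.4%, and PHYE and PIF5. The air summits of PHYE and PIF5 were not kept at the ethylene control depth, where 4 light signalling genes were in the ethylene list only and 3 in the air list only. Over all 27444 genes the counts at that depth were 4215 and 1276. With a fold enrichment of at least 2 the light signalling counts were 8 and 2, and those over all genes 4788 and 1346. All genes thus shifted towards the ethylene list in both settings, so the shift is not particular to light signalling. PHYD ranked 175 with ethylene and 6927 in air. Of the 16 gibberellin and brassinosteroid genes, 15 had both summits and DWF4, a brassinosteroid synthesis enzyme, the air list only, with an air summit that was not kept at the ethylene control depth. BRI1, the brassinosteroid receptor, ranked 7196 with ethylene and 229 in air, and the DELLA gene GAI ranked 5332 and 454.

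Of 29 auxin genes, 11 had both, 1 the ethylene list only, 6 the air list only and 11 neither. At the ethylene control depth the order turned round, with 6 auxin genes in the ethylene list only and 2, IAA7 and IAA28, in the air list only. Over all 27444 genes it turned round too, from 2164 and 2658 to 4215 and 1276, so this is not particular to auxin genes. As called, the ethylene-only gene was IAA3, and IAA7, a repressor of auxin response, was the highest-ranked air-only one, in the top 30.3%. Of 14 cell wall genes, 5 had both, 2 the ethylene list only, 2 the air list only and 5 neither. The primary wall cellulose synthase genes CESA1, CESA5 and CESA6 had both summits and CESA3 the ethylene one only. CESA2 held the air one only, in the top 92.0%. CESA4, CESA7 and CESA8 of secondary walls had neither, as did 54.9% of all 27444 genes. At the ethylene control depth the air summits of CESA1 and CESA2 were not kept. At that depth 4 cell wall genes were in the ethylene list only and 1 in the air list only. Nuclear photosynthesis genes had 4 of 21 in both lists, 0 in the ethylene list only, 4 in the air list only and 13 in neither. At the ethylene control depth 2 of these 21 genes were in the ethylene list only and 4 in the air list only. LHCB6 and LHCB4.1, light-harvesting proteins of photosystem II, held air peaks in the top 5.48% and 7.40%, at 56.3 and 52.7% GC. Near-identical copies among the CAB and RBCS genes make the absence of a peak there uncertain, since reads that fit several copies may be split between them.

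Circadian clock genes had 5 of 12 in both lists and 7 in neither, with TOC1, the evening clock repressor, in the top 34.2% with ethylene and 26.3% in air. Rapid stress response genes had 10 of 15 in both, 1 in each list alone and 3 in neither. PP2CA, a phosphatase that restrains abscisic acid signalling, ranked 10340 with ethylene and 147 in air. Housekeeping genes had 7 of 13 in both, 2 in the ethylene list only, 1 in the air list only and 3 in neither. At the ethylene control depth 6 housekeeping genes were in the ethylene list only and 1 in the air list only. For rapid stress response genes the counts at that depth were 3 and 1, and over all 27444 genes 4215 and 1276. Genes of floral, embryo and seed development, which are mostly silent in seedlings, had 1 of 21 in both, FLC, 1 in the air list only, ABI3, and 19 in neither.

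**Figure D5:**
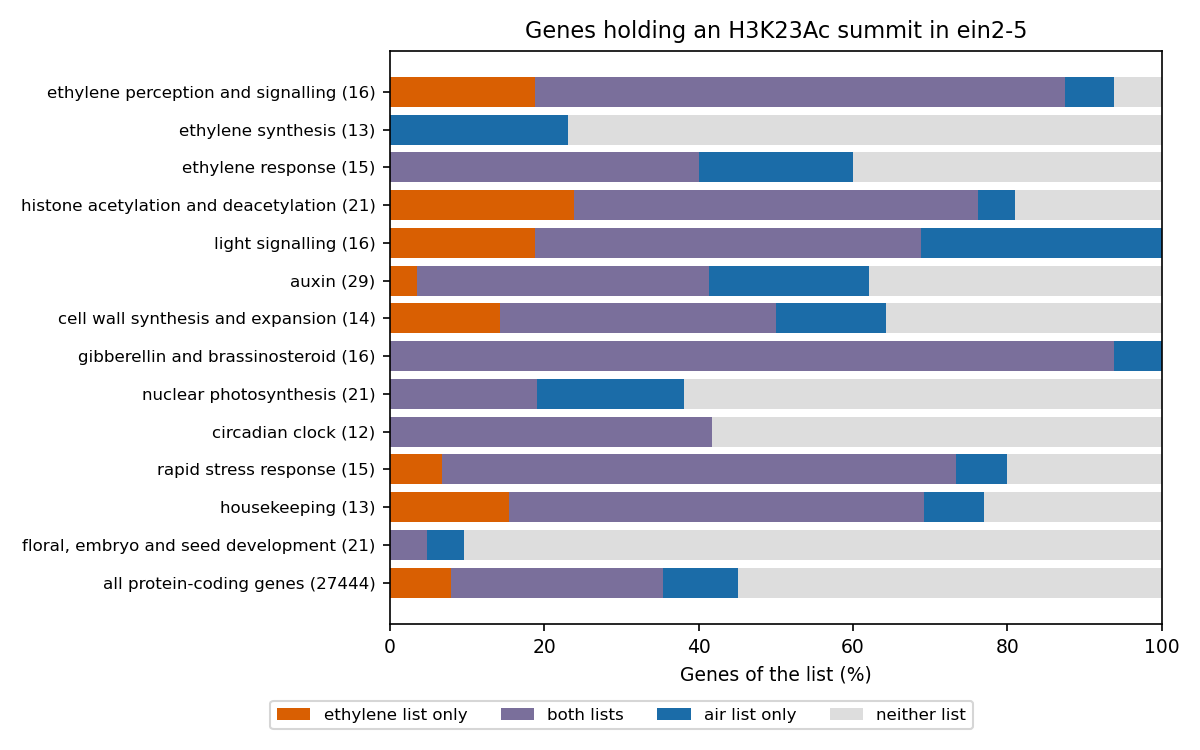
Share of the genes of each list (x axis, %, number of genes in brackets) that held an H3K23Ac summit of the ethylene list only, of both lists, of the air list only or of neither in ein2-5, with all 27444 protein-coding genes at the bottom. Gibberellin and brassinosteroid genes stand at 15 of 16 in both lists and floral, embryo and seed genes at 19 of 21 in neither.

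Peaks of wild-type Col-0 seedlings, called against other IgG libraries, overlapped the shared peaks of *ein2-5* more often than the unshared ones. The Col-0 ethylene list overlapped 50.4% of ethylene-only (interval 48.6 to 52.3%) and 85.7% of shared ethylene peaks, and 2060 of 4117 air-only (48.5 to 51.6%) and 85.4% of shared air peaks. The Col-0 lists held 12950 peaks with ethylene and 5012 in air, and the air list overlapped 11.3% (interval 10.2 to 12.5%) of ethylene-only and 17.2% (16.1 to 18.4%) of air-only peaks, against 42.2% and 41.8% of the shared ones. The Col-0 ethylene list thus overlapped ethylene-only and air-only peaks in shares whose intervals overlap. In the strongest 10%, 53 of 78 ethylene-only peaks (67.9%, interval 57.0 to 77.3%) and 73 of 80 air-only peaks (91.2%, interval 83.0 to 95.7%) overlapped the Col-0 ethylene list.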

How the data were processed

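Whole *ein2-5* seedlings were profiled by ChIP-seq with an anti-H3K23Ac antibody, with 2 libraries and 1 IgG library per treatment. Per the submitters' processing notes and the list headers, the authors used Bowtie2 2.1.0 for alignment to TAIR10 and SAMtools against duplicates. Libraries of a condition were merged before MACS2 2.1.0.20150603 was run without model building at a P threshold of 0.01, with fragments of 200 bp. Each deposited peak has a pileup, which is coverage signal at its summit after scaling to the smaller library. It also has a deposited fold enrichment, the ratio of pileup to local background. Significance was deposited as −log10 P value and −log10 q value. By the headers no q should exist, yet the column is filled, and it entered 1 alternative only.

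Members and gene lists were chosen with earlier results of these data known. Overlaps, gene positions, GC content and motifs were computed with biopython 1.88, pandas 2.3.3, numpy 2.4.6 and scipy 1.17.1 under Python 3.11.15 and plotted with matplotlib 3.10.9, with code tested on simulated lists. Genes came from the RefSeq TAIR10.1 annotation, which is newer than the authors', with 1 representative transcript a gene. The local background was recovered from pileup and fold enrichment. Poisson P values recomputed from it had a median error of at most 0.000684 in −log10 P. Named genes were the 10 with the highest-ranked ethylene-only, air-only and shared peaks, the 5 with the largest rank gap each way, the genes shown in the study, and list members by best rank. Results were recomputed for equal list length, for peaks with fold enrichment from 2 upward or q below 0.05, for the ethylene control depth, merging within 200 bp, with stricter overlaps and with other gene windows. H3K14Ac lists of *ein2-5* share the IgG controls and were not used here.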

Additional observations from a re-analysis of the deposited data

Results flagged for a closer look

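The ratio of ethylene to air H3K23Ac peak numbers stood on opposite sides of 1 in the genotypes, at 0.893 in *ein2-5* and 2.58 in Col-0. Each ratio rests on 1 pooled list per treatment, and the difference between the genotypes was not tested. In *ein2-5* the IgG control held 4333059 tags with ethylene and 13683768 in air, and in Col-0 it held 10479732 tags with ethylene and 2438541 in air. In each genotype the longer list is the one with the deeper control. The treatment and the depth of the control cannot be told apart.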

How the results depend on the processing

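The ratio of peak numbers was 0.893 as called, 0.792 with q under 0.05, and turned round to 1.94 with a fold enrichment of at least 2 and to 1.47 at the ethylene control depth. Ethylene peaks without an air peak (25.5% as called) were 27.1% with q under 0.05, 68.0% with a fold enrichment of at least 2, 30.9% at equal list length, 46.5% at the ethylene control depth, 30.7% with an overlap of 50% of the peak and 28.6% by the summit. Air peaks without an ethylene peak (33.7% as called) were 42.0%, 38.5%, 31.7%, 23%, 38.7% and 37.1% under the same settings. A fold enrichment of at least 2 removed 66.7% of the air list and 27.6% of the ethylene list by construction. The ethylene control depth removed air peaks only, so under it the ratio and the unshared share of ethylene peaks could only rise. Genes within 2 kb of an ethylene peak only (2333) were 7315 with a fold enrichment of at least 2 and 5282 at the ethylene control depth, and genes near an air peak only (3189) were 1847 and 1569. Merging moved none of these 5 values beyond its interval or 1.5 times. In settings added after the data were seen, the unshared shares were 16.5% with ethylene and 19.5% in air for the top 50% of each list, and 29.6% and 31.3% for peaks of 40 to 45% GC. The median GC of ethylene-only peaks was below that of air-only peaks as called and in the 7 alternatives for which both were computed, by 3.0 to 6.67 percentage points. No paired analysis was possible because the authors pooled the libraries before calling peaks, which also left no replicate to leave out. Control depth limits weak peaks: their absence from the ethylene list is not shown to be absence of the mark.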

Other observations

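Genes whose products are named ribosomal proteins, a group chosen after values were seen, held both summits in 141 of 329 cases, an ethylene summit only in 47 (14.3%) and an air summit only in 35 (10.6%). Genes with glycine-rich, proline-rich or hydroxyproline-rich products, chosen in the same way and often of high GC content, held both in 87 of 250 cases, an ethylene summit only in 9 (3.60%) and an air summit only in 39 (15.6%). These shares can be set beside the 7.89% and 9.69% of all genes.

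Genes under 1 kb, 4377 in all, held an ethylene summit only in 92 cases (2.1%) and an air summit only in 239 (5.46%). Genes of 3 kb or more, 7014 in all, held them in 809 (11.5%) and 825 (11.8%). Unshared shares per chromosome lay between 23.3 and 26.7% in the ethylene list and between 32.0 and 35.4% in the air list, with overlapping Wilson intervals between the lowest and the highest chromosome in each list.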
